A study of Mus musculus with 14 samples.

Results

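The genes described here are 49 of the 56923 genes counted in mouse 2-cell embryos. They encode cyclins, cyclin-dependent kinases and their Cks partners, Cdc25 phosphatases, the kinases that hold Cdk1 back, Polo and Aurora kinases, spindle checkpoint proteins, and subunits and coactivators of the anaphase-promoting complex (APC/C). They were chosen by symbol, with earlier results of these data known, and each symbol was found in the count table. The series asks how lactate bears on genome activation at the 2-cell stage, with 14 RNA-seq libraries in 7 groups of 2, each library made from 5 embryos of ICR mice. In 5 groups the embryos were cultured with 5 µM Gne140, an inhibitor of lactate dehydrogenase A and B, and 50 µM NMN, a precursor of NAD+. With 10 mM lactate in the medium the group is named G&N, and without it G&N-L. Both were collected as early 2-cell embryos at 30 h and as late 2-cell embryos at 54 h after hCG, the hormone that triggers ovulation. The paper began lactate deprivation at the late zygote stage, so late embryos were deprived for longer than early ones. In G&N-L, stage and length of deprivation therefore cannot be told apart. A further late G&N-L group had received 1 mM Lac-CoA (lactyl-coenzyme A, the donor of lactyl groups) by injection into the zygote. The last 2 groups, H3K18R and WT, were late 2-cell embryos injected with mRNA of histone H3 carrying an arginine in place of lysine at the named position, or of unmutated H3.

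In most cells cyclins rise and fall through the cell cycle, and each phase runs on the kinases that its cyclins switch on. E-type cyclins with Cdk2 bring cells into DNA replication, A-type cyclins act through replication into early mitosis, and B-type cyclins with Cdk1 drive mitosis. Wee1-type kinases restrain Cdk1, Cdc25 phosphatases release it, and the APC/C ends mitosis by marking B-type cyclins for destruction once the spindle checkpoint is satisfied. The egg stores many of these mRNAs for meiosis and the first cleavages, and the embryo has to transcribe its own copies when its genome is switched on.

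The libraries held 20350427 to 61275465 counts, of which the 49 genes took 1.12% to 1.96%. Levels are given as CPM, counts per 1000000 on library sizes normalized by edgeR's TMM method, in the order replicate 1 and replicate 2. A list of 8 egg transcripts summed to 7528 to 11007 CPM in the early libraries and 2316 to 7475 CPM in the late ones, and 8 transcripts typical of 2-cell embryos summed to 377 to 652 CPM and 1020.2 to 4910 CPM. Of 15 markers of cumulus cells, which surround the egg, the sum was 31.2 to 97.2 CPM. Of the defining ones, Amh was at 0 in all 14 libraries, Fshr in 8 and Cyp19a1 in 3. The highest count in a library was 396 for Fshr and 1169 for Cyp19a1. Of the 15 markers, 6 to 10 were at 0 in both libraries of a group, so each sum rests on part of the list. In the late stage the sum was 54.8 to 75.4 CPM in G&N (7 markers at 0) and 31.2 to 33.1 CPM in G&N-L (6 at 0). Its part in the lactate comparison was not tested. Groups follow the sample titles: the treatment labels of the early libraries and of the Lac-CoA libraries are less complete than the titles, and the count columns of the mutant are named K18A. In whole embryos, fewer cells that express a gene and less RNA per cell cannot be told apart.

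Promoter sequences of 4 cyclin and Cdk genes are shown because these genes moved in opposite directions between the early and late stage. The windows reach from 250 bases before to 50 bases after the RefSeq start and are given on GRCm38.p6, minus strand, at chr13:100786437-100786736 for Ccnb1, chr9:70421505-70421804 for Ccnb2, chr10:69352863-69353162 for Cdk1 and chr7:38107441-38107740 for Ccne1. Capitals mark matches, on either strand, to CCAAT, to TTTGAA or to TTTAAA (forms of the CHR element of cell-cycle promoters), and to TTTGGCGC or to TTTCGCGC (forms of the E2F site).
Ccnb1: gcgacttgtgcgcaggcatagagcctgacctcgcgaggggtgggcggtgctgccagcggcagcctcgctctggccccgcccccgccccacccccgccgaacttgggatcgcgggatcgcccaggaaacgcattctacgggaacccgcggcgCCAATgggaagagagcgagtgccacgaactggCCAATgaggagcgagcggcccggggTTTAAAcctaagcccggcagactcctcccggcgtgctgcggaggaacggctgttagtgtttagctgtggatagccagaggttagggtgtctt
Ccnb2: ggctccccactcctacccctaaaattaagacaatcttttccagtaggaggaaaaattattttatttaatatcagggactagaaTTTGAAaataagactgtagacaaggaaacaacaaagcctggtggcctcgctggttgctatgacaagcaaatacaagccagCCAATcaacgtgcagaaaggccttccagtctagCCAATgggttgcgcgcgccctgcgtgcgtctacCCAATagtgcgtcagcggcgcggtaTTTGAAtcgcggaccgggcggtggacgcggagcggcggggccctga
Cdk1: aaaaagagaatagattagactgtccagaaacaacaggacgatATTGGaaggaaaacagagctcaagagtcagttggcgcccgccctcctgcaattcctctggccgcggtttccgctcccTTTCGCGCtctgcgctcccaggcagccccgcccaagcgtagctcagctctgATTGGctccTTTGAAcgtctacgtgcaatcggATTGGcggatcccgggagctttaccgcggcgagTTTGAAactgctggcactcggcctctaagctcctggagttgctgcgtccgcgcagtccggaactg
Ccne1: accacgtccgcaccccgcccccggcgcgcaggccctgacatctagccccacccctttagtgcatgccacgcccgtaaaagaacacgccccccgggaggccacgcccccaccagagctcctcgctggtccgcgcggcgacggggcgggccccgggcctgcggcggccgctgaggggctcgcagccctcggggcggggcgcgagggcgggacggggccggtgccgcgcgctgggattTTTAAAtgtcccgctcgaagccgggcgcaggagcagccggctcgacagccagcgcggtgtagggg
No match overlapped another in these 4 windows. The Ccnb1 window held CCAAT at 99 and 67 bases before the start and TTTAAA at 42 bases before it. In Ccnb2, CCAAT occurred 3 times, 87, 54 and 21 bases before the start, and TTTGAA 2 times. The Cdk1 window held CCAAT in its reverse form ATTGG 3 times, TTTGAA 2 times and TTTCGCGC 131 bases before the start, while that of Ccne1 held TTTAAA alone. Windows were found for 39 of the 49 genes. Counting a match in any window of a gene, CCAAT was in 24 of these 39 (61.5%) and in 41.1% of all 27025 genes. TTTGAA was in 25.6% and 20.2%, and TTTAAA in 17.9% and 14.9%. The letters TTTGGCGC were in 1 of the 39 (Cdc25a, 2.56%) against 0.585% of all genes, and TTTCGCGC in 1 (Cdk1, 2.56%) against 0.374%. These are matches of letters and were not tested as binding sites.

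Levels spanned a wide range, as the heat map of the 14 libraries shows. Compared per kb of transcript in late G&N embryos, Cks2, a small Cdk-binding protein, was first with 8487 and 9950 CPM per kb, and its paralogue Cks1b was second with 1534 and 1979. Ccnb1, the main B-type cyclin, followed with 748 and 1021 CPM per kb, and Mad2l1, the checkpoint protein that inhibits Cdc20, with 575 and 802, and the ranges of this last pair overlapped. Wee2, the egg form of Wee1, came next with 184 and 227 CPM per kb, apart from the genes above and below it. At the low end were Ccnd2, with 0.112 and 0.261 CPM per kb, and Cdk6, with 0.275 and 1.07 CPM per kb, partners at entry into the cycle.

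**Figure D1:**
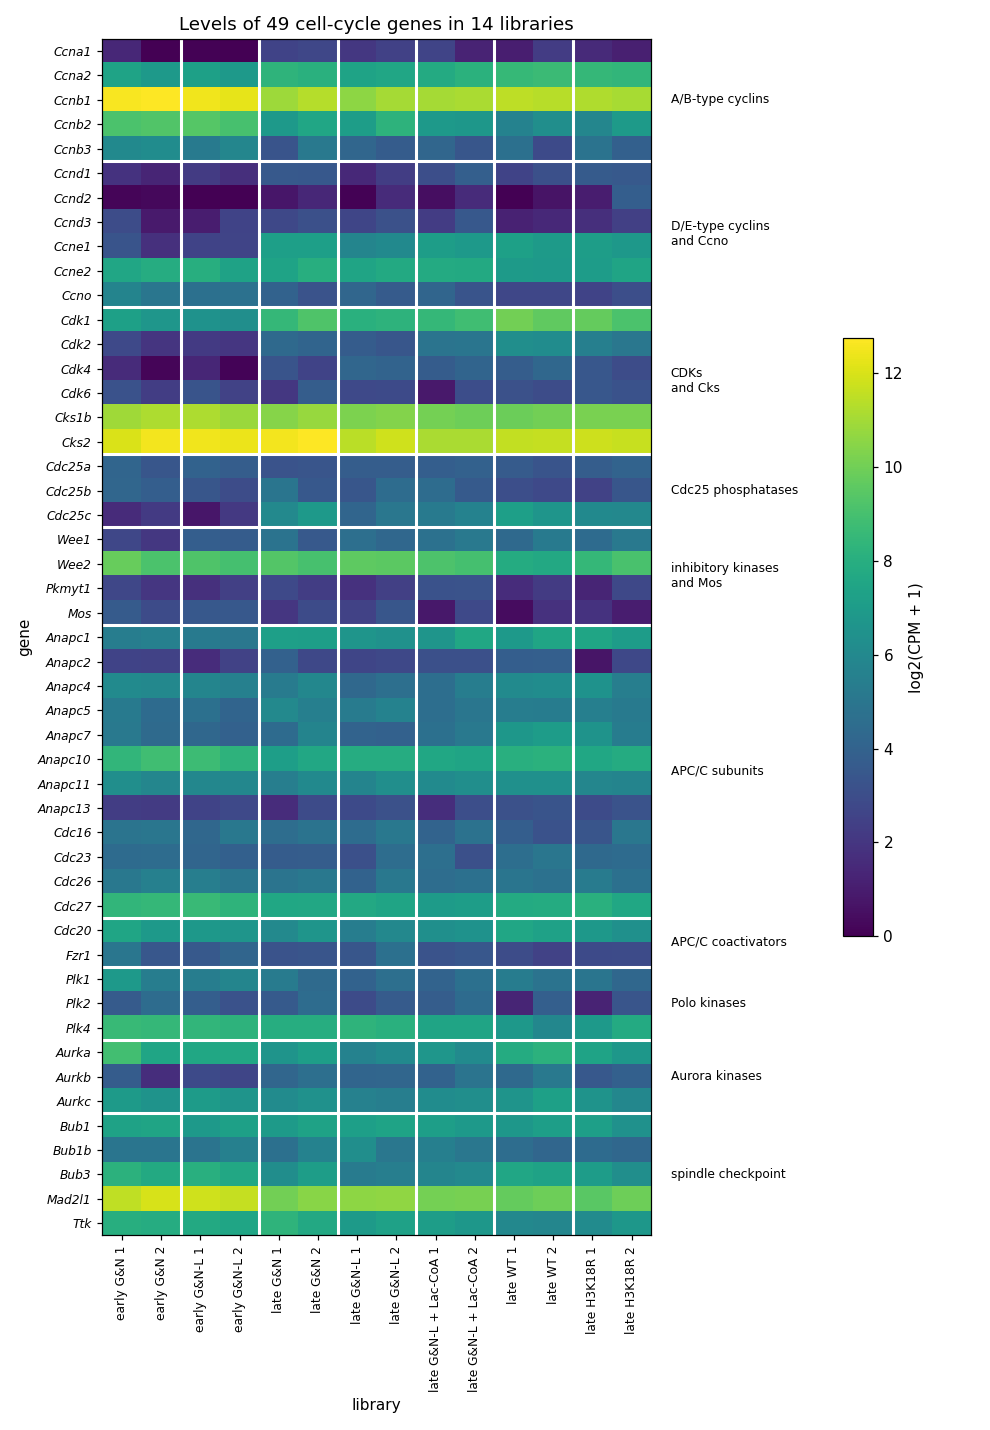
Heat map of the 49 genes (rows, grouped by role) in the 14 libraries (columns, 2 per group). Colour is log2(CPM + 1). Ccnb1, Cks1b, Cks2 and Mad2l1 are bright in each library, Ccne1 and Cdc25c are dark in the 4 early libraries and brighter in the 10 late ones, and Ccnd2 is dark throughout apart from H3K18R replicate 2.

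Shares of a paralogue set ranged from near even to very unequal. Ccne1 made up 10.5% and 2.46% of the E-type cyclin level (per kb) in early G&N embryos and 4.71% and 7.41% in early G&N-L embryos. In late embryos its share was 68.9% and 58.7% in G&N, 43.6% and 43.3% in G&N-L, 60.9% and 58.0% with Lac-CoA, 75.2% and 72.8% in WT, and 71.7% and 62.0% in H3K18R. The late G&N-L libraries thus lay above the early ones and below all other late ones. Cdc25c took 13.8% and 30.6% of the Cdc25 set in early G&N, 84.3% and 94.2% in late G&N and 67.0% and 74.1% in late G&N-L. By contrast Ccna2 made up at least 95.7% of the A-type cyclins and Wee2 at least 87.5% of the Wee pair in each library.

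**Figure D2:**
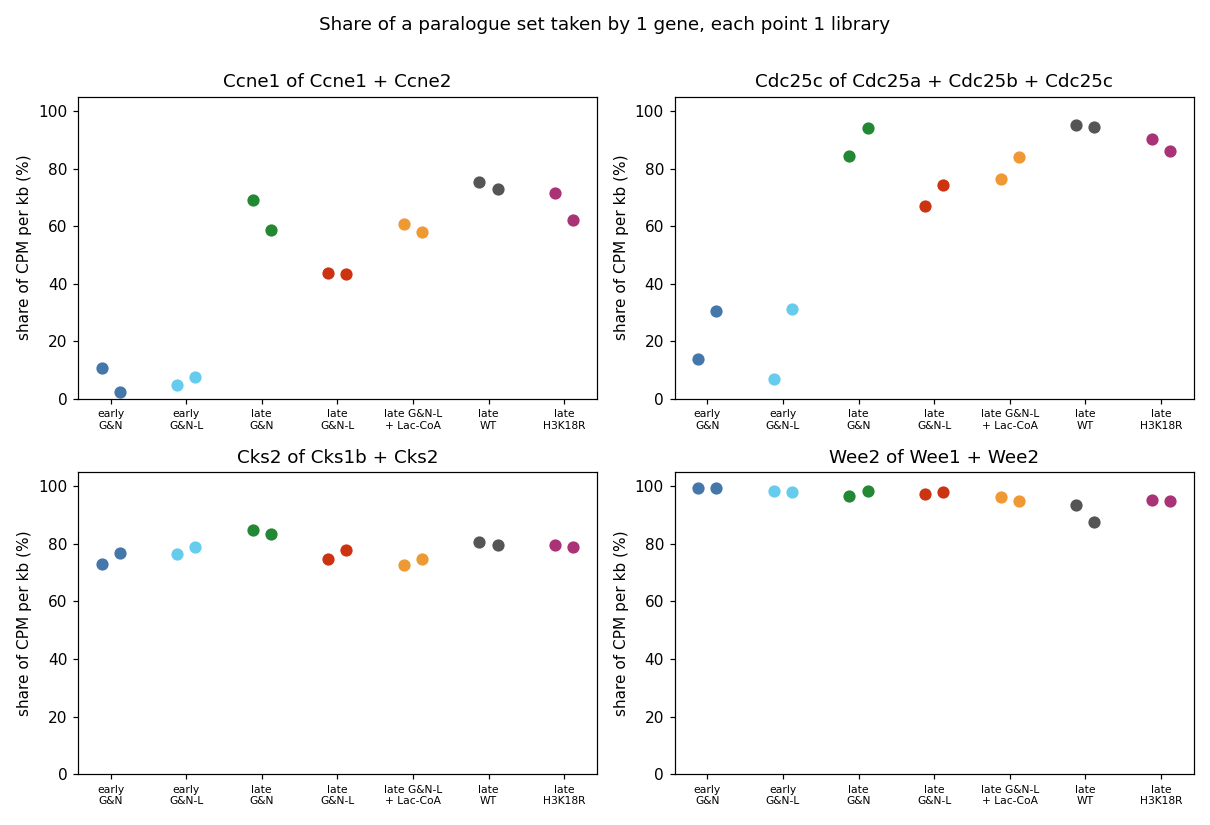
Share of a paralogue set, on CPM per kb, taken by Ccne1, Cdc25c, Cks2 or Wee2, with 1 point per library and the 7 groups along the horizontal axis. Ccne1 lies at 2.46% to 10.5% in the early libraries and 43.3% to 75.2% in the late ones, and Wee2 stays at 87.5% or more.

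Between the early and the late 2-cell stage with lactate, the B-type cyclins Ccnb1 and Ccnb2 and the checkpoint gene Mad2l1 fell, while Ccne1, Cdk1, Cdc25c and Anapc1 rose. All 49 genes were tested. At an adjusted p under 0.05 (edgeR quasi-likelihood test), 4 were higher in late embryos, against 8.18% of the 19443 genes tested, and 3 were lower, against 5.47%. DESeq2, run as a second test, called these 7 genes and others, 8 higher in all, against 18.6% of all genes by that tool, and 9 lower, against 11.8%. Its further calls were Ccna2, Ccnd1, Cdk2 and Wee1, higher, and Ccnb3, Ccno, Anapc10, Cdc27, Aurka and Bub3, lower. Adjusted p values and calls below are those of edgeR unless DESeq2 is named. At an unadjusted p under 0.05, 8 were higher, against 19.8% of all genes, and 12 were lower, against 14.6%. The median log2 fold change of the 49 genes was -0.12, beside 0.08 over all genes tested, and scaled by library totals these medians were 0.29 and 0.46. Leaving out late G&N replicate 1 left 1 call (Cdc25c), and leaving out late G&N replicate 2 left 0, the remaining library being assumed to vary like the early ones, whereas without early G&N replicate 1 there were 7 higher and 4 lower.

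Ccnb1 stood at 6438 and 6917 CPM in early and 1891 and 2579 CPM in late G&N embryos, and at 5669 and 4922 CPM against 1558 and 2104 CPM without lactate. Both stages lay far apart in either medium. Its log2 fold change was -1.66 (SE 0.283, adjusted p = 0.0236) with lactate and -1.59 (SE 0.175, adjusted p = 0.0108) without. Ccnb1 lies on chromosome 13 of mm39 from 100915153 to 100923116, with no other annotated gene over its exons. Ccnb2, the second mitotic B-type cyclin (chromosome 9, 70314966 to 70328874), had 556 and 621 CPM in early and 114 and 184 CPM in late G&N embryos. Without lactate it had 669.6 and 526 CPM in early and 139 and 306 CPM in late embryos. The late libraries were below the early ones in both media, and the change passed the test with lactate, at a log2 fold change of -2.07 (SE 0.335, adjusted p = 0.0210), while without lactate it was -1.49 (SE 0.386, adjusted p = 0.0686). Ccnb3, a B-type cyclin of meiosis, was at 64.6 and 72.5 CPM in early and 9.03 and 34.2 CPM in late G&N embryos. In G&N-L it was at 37.4 and 56.4 CPM and then at 17.4 and 11.95 CPM. Its log2 fold change was -1.75 (SE 0.655, adjusted p = 0.1249) with and -1.74 (SE 0.380, adjusted p = 0.0479) without lactate, so that the change passed in edgeR without lactate, while DESeq2 called it in both media. Processed copies of 2 of these genes were counted beside them, Ccnb1-ps with 414 to 2525 counts and Ccnb2-ps with 0 to 651 counts per library, so reads of near-identical sequence may be split between gene and copy.

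The A-type cyclins did not pass the adjusted threshold in edgeR in either medium, while DESeq2 called Ccna2 with lactate (adjusted p = 0.000721) and Ccna1 without (adjusted p = 0.000216). Ccna2, which acts in replication and mitosis, had 171 and 115 CPM in early and 315 and 275 CPM in late G&N embryos. In G&N-L the corresponding levels were 151 and 119 CPM and 169 and 184 CPM. The stages were separate in both media, with a log2 fold change of 0.99 (SE 0.260, adjusted p = 0.0606) with lactate and 0.33 (SE 0.178, adjusted p = 0.284) without. Ccna1, the germ cell form, was nearly silent early, at 1.69 and 0 CPM in G&N and 0.0504 and 0 CPM in G&N-L, the last 2 libraries holding 2 and 0 counts. Late it reached 4.95 and 5.58 CPM in G&N and 3.22 and 4.59 CPM in G&N-L, and no fold is given against counts this low.

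Ccne1 showed a large rise. This activator of Cdk2 (chromosome 7 of mm39, 37797404 to 37808264) had 8.81 and 2.37 CPM in early G&N embryos and 147 and 146 CPM in late ones. In G&N-L it had 5.01 and 5.21 CPM early and 54.1 and 66.3 CPM late. Its exons overlap the antisense gene 1600014C10Rik, and the strand setting of the counts is not given. The log2 fold change was 4.70 (SE 0.641, adjusted p = 0.0143), a 25.9-fold rise, with lactate and 3.49 (SE 0.287, adjusted p = 0.00629), an 11.3-fold rise, without. With lactate the rise was 59.4-fold without early G&N replicate 1 and 17.3-fold without early G&N replicate 2. Its paralogue Ccne2 had 188 and 235 CPM in early and 166 and 258 CPM in late G&N, and 254 and 163 CPM and 175 and 217 CPM in G&N-L. These ranges overlapped, with log2 fold changes of -0.09 (SE 0.337) and -0.14 (SE 0.242). The D-type cyclins, which link growth signals to Cdk4 and Cdk6, were low. Ccnd1 was at 2.59 and 1.48 CPM in early and 10.97 and 10.4 CPM in late G&N, and at 3.60 and 2.31 CPM and 1.77 and 3.99 CPM in G&N-L. Its stages were thus apart with lactate (log2 fold change 2.35, SE 0.653, adjusted p = 0.0668) and overlapped without it (-0.09, SE 0.880). Ccnd2 did not exceed 1.96 CPM in the 8 libraries of these 4 groups and was at 0 in both early G&N-L libraries, where a count of 0 allows up to 3 counts, a limit that covers counting error only. Ccnd3 ranged from 0.864 to 10.5 CPM over all 14 libraries, and its stages overlapped with lactate. Ccno, an atypical cyclin of multiciliated cells, had 53.0 and 31.7 CPM early and 14.97 and 8.65 CPM late with lactate, at a log2 fold change of -1.89 (SE 0.459, adjusted p = 0.0526).

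Cdk1, the mitotic kinase (chromosome 10, 69170976 to 69236595), had 150.2 and 103 CPM in early and 359.8 and 597 CPM in late G&N embryos. In G&N-L it rose from 90.2 and 78.6 CPM to 277 and 305 CPM. Its exons overlap the antisense gene Ank3. The log2 fold changes of Cdk1 were 1.86 (SE 0.334, adjusted p = 0.0267) with and 1.73 (SE 0.165, adjusted p = 0.00796) without lactate. The kinase gene thus rose in both media while its partner cyclin genes Ccnb1 and Ccnb2 fell. Without lactate the fall of Ccnb2 passed in DESeq2 (adjusted p = 0.000295) but not in edgeR. Cdk2, the partner of the E-type cyclins, was at 6.12 and 2.93 CPM early and 19.9 and 16.2 CPM late in G&N, and at 3.53 and 2.99 CPM and 12.3 and 9.58 CPM in G&N-L. Neither change passed in edgeR, at log2 fold changes of 1.96 (SE 0.559, adjusted p = 0.0690) and 1.69 (SE 0.534, adjusted p = 0.0914), whereas both did in DESeq2 (adjusted p = 0.00259 and 0.0189). Cdk4 had 1.98 and 0.114 CPM early and 8.98 and 4.96 CPM late in G&N, and 1.61 and 0.0906 CPM and 17.5 and 15.7 CPM in G&N-L. The replicates of the early groups differed more than 10-fold, and neither change passed in edgeR, while DESeq2 called the higher late level without lactate (adjusted p = 0.000598). Cks2 was at 4132 and 5916 CPM in early and 5873 and 6885 CPM in late G&N embryos, but at 5819 and 5428 CPM and then 2807 and 3688 CPM in G&N-L. It passed the test without lactate, with a log2 fold change of -0.85 (SE 0.158, adjusted p = 0.0332), beside 0.25 (SE 0.322, adjusted p = 0.658) with lactate. Cks1b had 1961 and 2323 CPM early and 1373 and 1771 CPM late with lactate, and 2323 and 1859 CPM and 1222 and 1359 CPM without. Its log2 fold change was -0.75 (SE 0.143, adjusted p = 0.0351) without lactate and -0.53 (SE 0.282, adjusted p = 0.252) with it.

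Of the Cdc25 phosphatases, Cdc25c rose with lactate, from 1.96 and 3.46 CPM to 62.7 and 113 CPM, a log2 fold change of 4.91 (SE 0.580, adjusted p = 0.0109), or 30.1-fold, and 46.1-fold without early G&N replicate 2. Without lactate it was at 0.705 and 3.40 CPM early and 16.8 and 32.8 CPM late. Its log2 fold change there of 3.52 (SE 0.918, adjusted p = 0.0691) did not pass in edgeR but did in DESeq2 (adjusted p = 0.000316). The exons of Cdc25c overlap the antisense genes Rpl27rt and 2010110K18Rik. Cdc25a, which acts early in the cycle, ranged from 8.54 to 16.9 CPM over the 14 libraries. Cdc25b, which starts meiosis in the egg, ranged from 4.70 to 30.2 CPM, with log2 fold changes of 0.35 (SE 0.614) with and 0.88 (SE 0.550) without lactate. Wee2 was at 872 and 567 CPM early and 656 and 531 CPM late with lactate, and at 613 and 511 CPM and 777 and 751 CPM without. Its stages overlapped with lactate, and the late level was the higher one without it, at 0.39 (SE 0.142, adjusted p = 0.132 in edgeR and 0.00917 in DESeq2). Wee1, the somatic form, had 5.67 and 3.18 CPM early and 27.9 and 10.7 CPM late in G&N, and 13.1 and 12.01 CPM and 24.5 and 17.95 CPM in G&N-L, log2 fold changes of 2.08 (SE 0.672, adjusted p = 0.0867) and 0.70 (SE 0.364, adjusted p = 0.270). Pkmyt1, the membrane-bound kinase of this type, did not exceed 8.55 CPM in any library. Mos, which keeps the egg arrested at metaphase, was at 11.5 and 6.48 CPM early and 3.04 and 6.47 CPM late in G&N, and at 10.6 and 10.5 CPM and 4.78 and 9.58 CPM in G&N-L, with neither change past the threshold in edgeR or DESeq2.

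Among the 12 APC/C subunits, Anapc1, a large scaffold subunit, rose in both media. It had 41.9 and 45.8 CPM early and 148 and 140.2 CPM late in G&N, and 35.8 and 32.4 CPM and 98.9 and 86.9 CPM in G&N-L. Its log2 fold changes were 1.64 (SE 0.278, adjusted p = 0.0235) and 1.39 (SE 0.204, adjusted p = 0.0198). Anapc4 and Cdc27, further scaffold and TPR subunits, passed in edgeR, as lower, without lactate alone. Anapc4 was at 55.0 and 46.8 CPM early and 18.7 and 24.3 CPM late there, a log2 fold change of -1.30 (SE 0.262, adjusted p = 0.0408), and at 67.2 and 62.1 CPM and 38.5 and 58.4 CPM with lactate. Cdc27 had 404 and 316 CPM and then 206 and 173 CPM without lactate, a change of -0.98 (SE 0.189, adjusted p = 0.0364). With lactate it had 336 and 360.1 CPM and then 194 and 201 CPM. That change was -0.90 (SE 0.246, adjusted p = 0.0653 in edgeR and 0.0174 in DESeq2). Values for Anapc10, which helps to bind substrates, were 333 and 463 CPM early and 143 and 199 CPM late with lactate. Its log2 fold change was -1.32 (SE 0.343, adjusted p = 0.0594 in edgeR and 0.00643 in DESeq2). The other 8 subunits, Anapc2, Anapc5, Anapc7, Anapc11, Anapc13, Cdc16, Cdc23 and Cdc26, passed in neither medium in edgeR and lay between 0.671 and 131 CPM over the 14 libraries, and DESeq2 called Anapc5 higher late without lactate (adjusted p = 0.0116). Subunits of 1 complex thus changed in opposite directions, by edgeR calls without lactate and by DESeq2 calls in both media. The coactivator Cdc20, which turns on the APC/C in mitosis, was at 179 and 117 CPM early and 63.1 and 99.4 CPM late in G&N, and at 111 and 101 CPM and 42.0 and 61.4 CPM in G&N-L. The stages did not overlap, and the log2 fold changes were -0.92 (SE 0.331, adjusted p = 0.114) and -1.09 (SE 0.245, adjusted p = 0.0512). Fzr1, the coactivator of late mitosis and G1, was at 31.5 and 10.1 CPM and 8.59 and 9.32 CPM in G&N and at 10.9 and 16.6 CPM and 9.78 and 25.0 CPM in G&N-L, and neither change passed in edgeR or DESeq2.

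The Aurora kinases Aurka, at centrosomes and spindle poles, and Aurkc, the form of germ cells and early embryos, passed in edgeR, as lower, without lactate alone. Aurka had 194 and 197 CPM early and 49.5 and 64.9 CPM late, a log2 fold change of -1.84 (SE 0.208, adjusted p = 0.0117). With lactate, it had 471 and 179.6 CPM early and 96.5 and 141 CPM late, with the early libraries far apart. The log2 fold change of Aurka there was -1.48 (SE 0.455, adjusted p = 0.0772 in edgeR and 0.0133 in DESeq2). Aurkc was at 127 and 97.2 CPM and then 48.5 and 43.2 CPM without lactate, at -1.34 (SE 0.213, adjusted p = 0.0231), and at 121 and 91.9 CPM and then 69.2 and 85.8 CPM with lactate, at -0.52 (SE 0.269, adjusted p = 0.243). Aurkb, the kinase of the chromosomal passenger complex, was at 12.3 and 2.23 CPM and then 17.6 and 24.6 CPM in G&N, and at 6.27 and 5.26 CPM and then 17.0 and 17.6 CPM in G&N-L, with neither change past the threshold in edgeR and the one without lactate past it in DESeq2 (adjusted p = 0.00443). No Polo kinase passed in edgeR, and DESeq2 called Plk1 lower late without lactate (adjusted p = 0.00808). Plk1, the mitotic one, had 115 and 41.8 CPM and then 38.3 and 20.1 CPM in G&N, and 41.6 and 54.8 CPM and then 15.2 and 24.4 CPM in G&N-L. Plk4, which starts centriole duplication, had 391 and 356 CPM and then 247 and 248 CPM in G&N, and 341 and 306 CPM and then 312 and 270.5 CPM in G&N-L. Plk2 ranged from 1.44 to 21.9 CPM over the 14 libraries.

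In the spindle checkpoint set, Mad2l1 fell in both media. Bub3, which brings checkpoint kinases to kinetochores, was lower late in both media and passed in edgeR without lactate alone. Mad2l1 (chromosome 6, 66512208 to 66524204) had 3010.0 and 4111 CPM early and 1037 and 1447 CPM late in G&N, and 3685 and 3136 CPM and then 1526 and 1613 CPM in G&N-L. The log2 fold changes were -1.61 (SE 0.338, adjusted p = 0.0384) and -1.18 (SE 0.124, adjusted p = 0.00970). Bub3 (chromosome 7, 131161880 to 131178553) had 295 and 213 CPM early and 74.0 and 135 CPM late with lactate, against 265 and 201 CPM and then 38.4 and 43.0 CPM without. The late libraries lay below the early ones in both media. The log2 fold change of Bub3 was -1.34 (SE 0.357, adjusted p = 0.0620 in edgeR and 0.00724 in DESeq2) with lactate. Without lactate it was -2.57 (SE 0.202, adjusted p = 0.00600). Ttk, the Mps1 kinase, was at 256 and 234 CPM and then 316 and 206 CPM in G&N, and at 212 and 179.9 CPM and then 124 and 154 CPM in G&N-L. The kinases Bub1, at 85.4 to 175 CPM, and Bub1b, at 17.7 to 78.7 CPM over the 14 libraries, passed in neither medium with either tool.

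**Figure D3:**
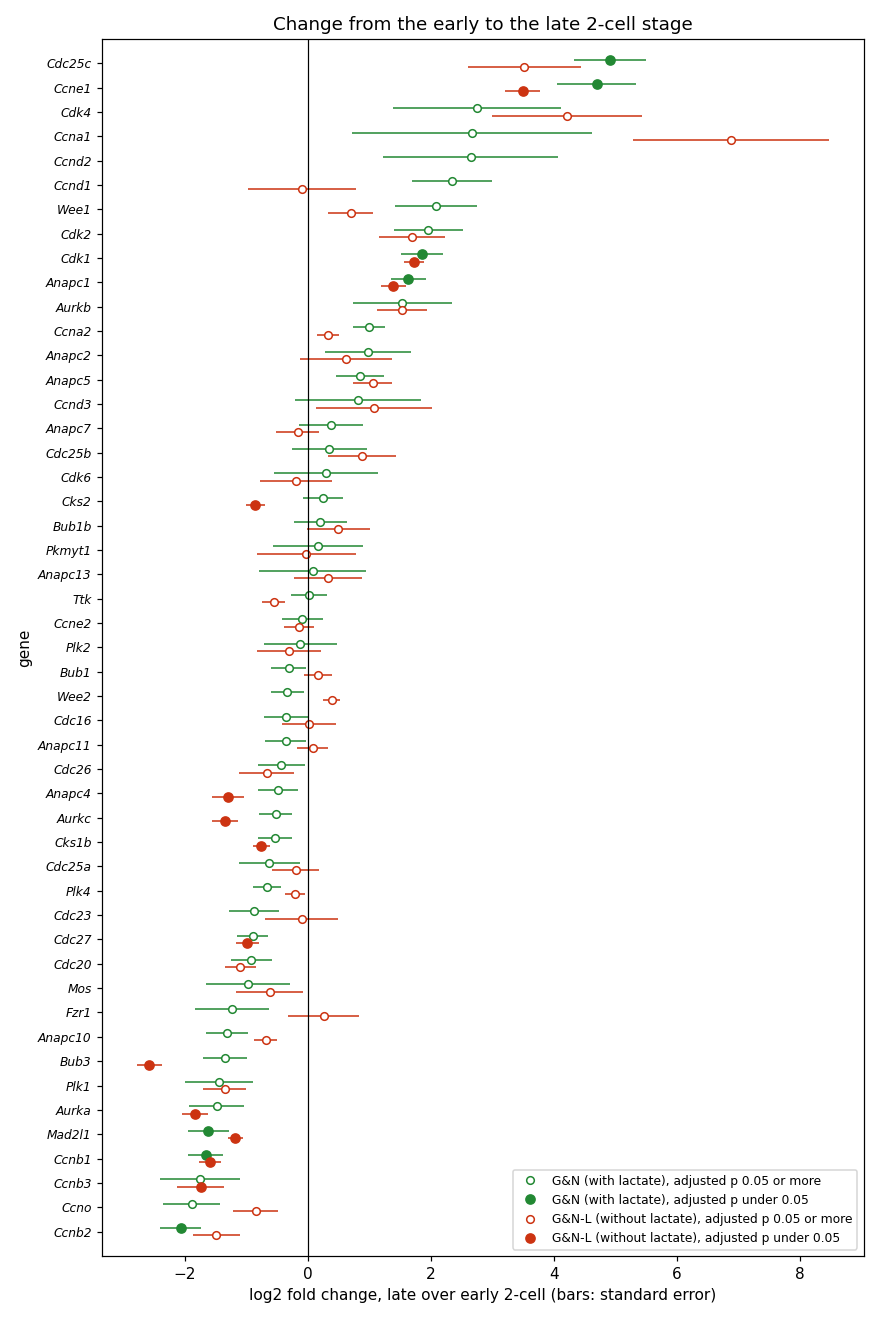
Log2 fold change of each gene from the early to the late 2-cell stage with lactate (green) and without lactate (red), with bars of 1 standard error and filled points for an adjusted p under 0.05. Cdc25c (4.91) and Ccne1 (4.70) are highest with lactate and Ccnb2 (-2.07) is lowest, and Bub3 (-2.57) is the lowest without lactate.

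Counted over the list, 48 genes were tested without lactate, Ccnd2 being too low. At the adjusted threshold 3 were higher in late embryos, against 5.97% of the 18604 genes tested, and 10 were lower, against 5.87%. Unadjusted, 10 had p under 0.05 and a higher level, against 19.1%, and 15 were lower, against 13.4%. DESeq2 called 10 higher, against 16.6% of all genes, and 15 lower, against 11.1%, adding Ccna1, Cdk2, Cdk4, Cdc25c, Wee2, Anapc5 and Aurkb to the former and Ccnb2, Anapc10, Cdc20, Plk1 and Ttk to the latter. Scaled by library totals the split was 7 higher, against 9.78% of all genes, and 5 lower, against 3.68%, in place of 3 and 10. In that scaling the median over all genes moved from 0.15 to 0.51, and that of the listed genes from -0.12 to 0.25. With any 1 of the 4 libraries left out, fewer genes were called lower. Aurkc, among the lower genes, and Anapc1, among the higher ones, lost their calls in each of these 4 fits. The log2 fold change then ran from -1.49 to -1.20 for Aurkc and from 1.30 to 1.53 for Anapc1. The comparisons with and without lactate share no library.

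Whether the stage change itself differed between the media was tested as an interaction over the 8 libraries of these 4 groups. In edgeR, 0 of the 49 genes and 0% of the 22287 genes tested passed the adjusted threshold, and DESeq2 also called 0 of the 49, against 0.888% of all genes. By unadjusted p under 0.05, 5 genes had a more negative change without lactate, against 3.98% of all genes, and 0 a more positive one, against 3.57%. They were Cks2 (difference in log2 fold change -1.15, SE 0.365), Bub3 (-1.28, SE 0.416), Aurkc (-0.87, SE 0.329), Ccnd1 (-2.48, SE 1.04) and Ccna2 (-0.70, SE 0.301), with adjusted p values from 0.639 to 0.650. A different stage change in the 2 media was therefore not shown for any member.

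Lactate removal was compared directly at each stage. In late embryos without lactate, the lower genes named for their smallest unadjusted p were Ccne1, Cks2, Cdc25c, Bub3 and Aurka. However, 0 of the 49 genes passed the adjusted threshold in edgeR, as did 0% of the 19481 genes tested. At an unadjusted p under 0.05, 12 were lower, against 7.65% of all genes, and 1 was higher, against 4.32%. DESeq2 called 4 lower, against 3.07% of all genes, and 0 higher, against 1.49%. The median log2 fold change was -0.26, beside -0.02 over all genes, and it was -0.0038 without late G&N replicate 2. Summed egg transcripts overlapped between the groups, at 5722 to 7475 CPM in G&N-L and 5913 to 6473 CPM in G&N, and 2-cell transcripts were higher in G&N-L, at 2914 to 3324 CPM against 2581 to 2707 CPM, a shift whose part in these values was not tested.

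The levels of these genes in late embryos, with and without lactate, stand above. The G&N-L level of Ccne1 was 2.36-fold lower (log2 fold change -1.24, SE 0.226, adjusted p = 0.311 in edgeR and 0.000922 in DESeq2). For Cks2 the log2 fold change was -0.93 (SE 0.178, adjusted p = 0.311 and 0.00551 in the same order), for Cdc25c -1.77 (SE 0.445, adjusted p = 0.324 and 0.00616) and for Bub3 -1.30 (SE 0.330, adjusted p = 0.327 and 0.0196). These are the 4 genes that DESeq2 called. Aurka had a log2 fold change of -0.999 (SE 0.279, adjusted p = 0.332 and 0.0622). The remaining 7 of the 12 were Ccna2 (-0.70), Anapc4 (-1.12), Ttk (-0.87), Aurkc (-0.70), Ccnd1 (-1.85), Anapc1 (-0.59) and Cdk1 (-0.66), of which Anapc4, Ttk and Anapc1 are named after their values were seen. The gene with a higher level was Cdk4, at 1.29 (SE 0.515, adjusted p = 0.416). The B-type cyclins were not among the 13 genes. Ccnb1 was at -0.24 (SE 0.218), Ccnb2 at 0.63 (SE 0.424) and Ccnb3 at -0.48 (SE 0.668), and with 1 library left out these ran from -0.45 to 0.0378, from -0.0357 to 1.07 and from -1.13 to 0.79. In all, the 13 genes spanned cyclins, kinases, a phosphatase, APC/C subunits and checkpoint genes.

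**Figure D4:**
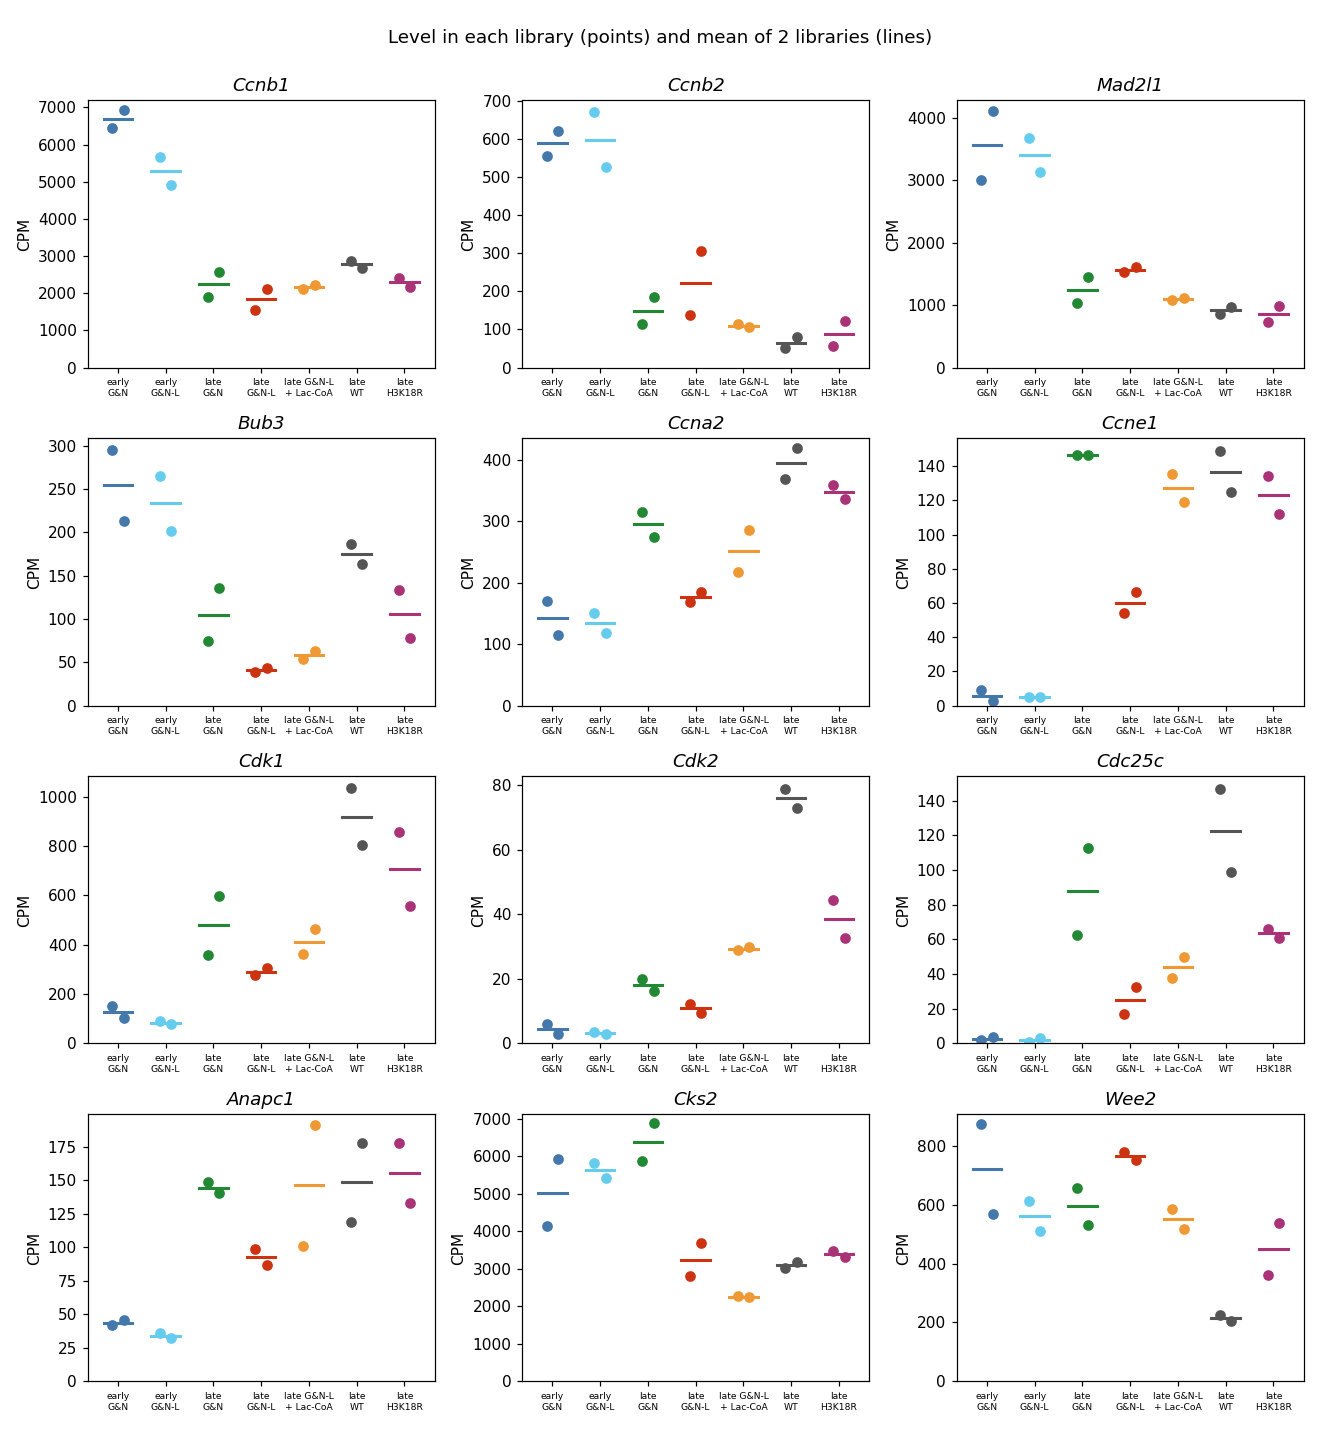
CPM of 12 genes in the 14 libraries, with points for libraries and lines for the mean of 2, each panel starting at 0. Ccnb1, Ccnb2, Mad2l1 and Bub3 are lower in late G&N and G&N-L than in early embryos, Ccne1 in late G&N-L (54.1 and 66.3 CPM) lies below the other late groups (112 to 149 CPM), and Cks2 in late G&N (5873 and 6885 CPM) lies above the other late groups (2245 to 3688 CPM).

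In early embryos 47 genes could be tested, Ccna1 and Ccnd2 being too low. In edgeR 0 of them passed the adjusted threshold, and 0% of the 17343 genes tested, with DESeq2 also calling 0, against 0.202% of all genes. At an unadjusted p under 0.05, 1 was higher without lactate, against 1.82% of all genes, and 0 were lower, against 2.70%. It was Wee1, with 13.1 and 12.01 CPM without and 5.67 and 3.18 CPM with lactate, a log2 fold change of 1.65 (SE 0.464, adjusted p = 0.9999). Ccne1, Bub3 and Cks2 had log2 fold changes of 0.05 (SE 0.708), 0.000794 (SE 0.207) and 0.26 (SE 0.263), and their early libraries overlapped between the media. Each of the 3 changed sign without at least 1 of the 4 libraries.

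Lac-CoA was compared first with late G&N-L embryos, which also serve as one side of the lactate comparison, so these 2 comparisons share libraries. The Lac-CoA embryos were injected as zygotes, and no injection is described for the G&N-L embryos. Lac-CoA and injection therefore cannot be told apart here. No gene passed, 0 of 49 in edgeR and 0% of the 19610 genes tested, while DESeq2 called 2 higher (Ccne1, Cdk2), against 3.37% of all genes, and 2 lower (Plk4, Mad2l1), against 2.58%. At an unadjusted p under 0.05, 5 were higher with Lac-CoA, against 6.92% of all genes, and 6 were lower, against 6.38%. The median was 0.05, beside -0.01 over all genes, and it was -0.13 without late G&N-L replicate 1 and 0.32 without late G&N-L replicate 2. Ccne1 had 135 and 119 CPM with Lac-CoA, above both late G&N-L libraries, at a log2 fold change of 1.03 (SE 0.223, adjusted p = 0.294). Cdk2 was at 29.0 and 29.7 CPM, at 1.37 (SE 0.362, adjusted p = 0.300). Anapc7 (24.9 and 34.9 CPM against 15.9 and 14.8), Cdc20 (81.4 and 89.8 CPM against 42.0 and 61.4) and Aurkc (72.7 and 78.2 CPM against 48.5 and 43.2) were the remaining genes with higher levels. Plk4 was at 174 and 176 CPM, below both G&N-L libraries, at -0.78 (SE 0.180, adjusted p = 0.294). Mad2l1 was at 1086 and 1115 CPM, at -0.56 (SE 0.136, adjusted p = 0.294), and Cks2 at 2277 and 2245 CPM, at -0.57 (SE 0.171, adjusted p = 0.305). Wee2 (585 and 516 CPM), Cdc27 (127 and 135 CPM) and Ccnb2 (113 and 107 CPM) were also below both G&N-L libraries. Summed egg transcripts were lower with Lac-CoA as well, at 4476 to 5129 CPM against 5722 to 7475 CPM in G&N-L. The 2-cell transcripts were higher, at 4376 to 4910 CPM against 2914 to 3324 CPM, and so were the cumulus markers, at 45.2 to 50.8 CPM against 31.2 to 33.1 CPM. The part of these shifts in the gene values was not tested.

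Set against late G&N embryos, which had lactate and no injection, 0 of the 49 genes passed in edgeR and 0% of the 19613 genes tested, while DESeq2 called Cks2 alone, against 0.994% of all genes called lower and 1.33% higher. With the unadjusted p, 0 were higher, against 4.41% of all genes, and 4 were lower, against 4.10%. The median was -0.08, beside 0.01 over all genes, and it was 0.14 without late G&N replicate 2. Cks2 was 2.64-fold lower with Lac-CoA, at a log2 fold change of -1.40 (SE 0.172, adjusted p = 0.500 in edgeR and 1.97e-09 in DESeq2), and its Lac-CoA libraries were below the late G&N-L ones as well. Ttk, at 138 and 108 CPM, had a log2 fold change of -1.0001 (SE 0.315, adjusted p = 0.500). Cdc25c, at 37.8 and 49.96 CPM, had -0.90 (SE 0.355, adjusted p = 0.570) and Anapc5, at 23.7 and 31.3 CPM, -0.90 (SE 0.354, adjusted p = 0.569). For Ccne1 the difference from G&N was -0.11 (SE 0.222). Against late G&N, too, egg transcripts were lower with Lac-CoA (5913 to 6473 CPM in G&N) and 2-cell transcripts higher (2581 to 2707 CPM in G&N), and their part was not tested.

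For the paralogue sets, the levels with Lac-CoA that are not given above were as follows. Ccna2 was at 218 and 286 CPM, Ccna1 at 5.11 and 1.41, Ccnb1 at 2106 and 2222, and Ccnb3 at 17.8 and 9.71. Ccnd1 was at 7.38 and 13.6 CPM, Ccnd2 at 0.368 and 1.96, Ccnd3 at 3.77 and 10.5, and Ccne2 at 218 and 216. For all 8 genes these levels overlapped with those of late G&N. Cdk1 stood at 363 and 464 CPM, within the late G&N range and above both G&N-L libraries, and Cks1b at 1101 and 979 CPM, below the late libraries of both. Cdc25a was at 13.1 and 14.3 CPM, Cdc25b at 22.04 and 11.1, Wee1 at 26.3 and 34.5, and Mos at 0.759 and 5.99. Fzr1 was at 8.72 and 10.1 CPM, Plk1 at 15.9 and 25.3, Plk2 at 12.7 and 21.2, Aurka at 101 and 67.9, and Aurkb at 15.02 and 29.3. Aurka thus lay above both late G&N-L libraries.

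**Figure D5:**
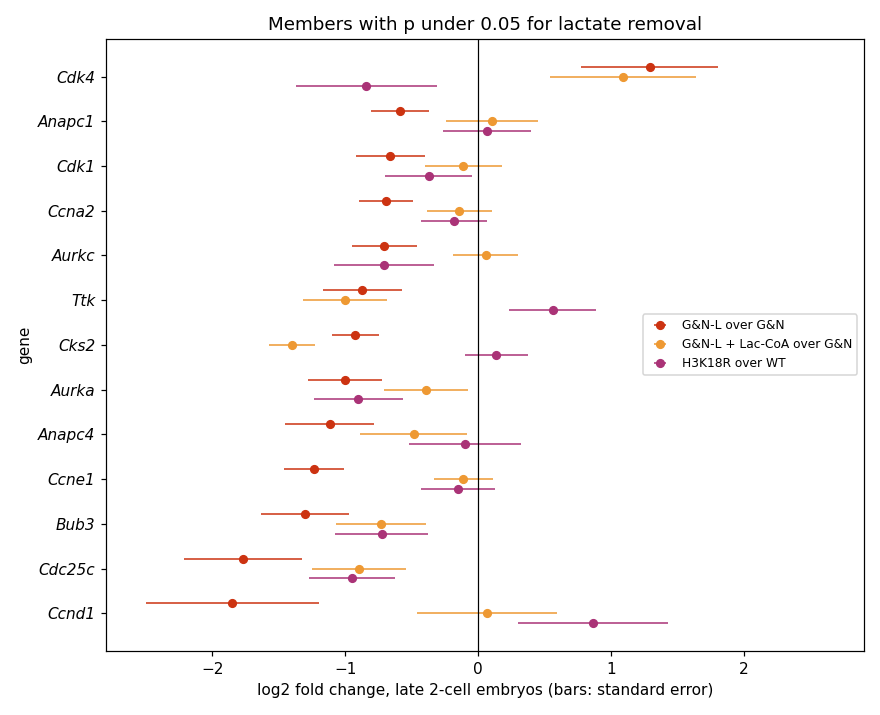
Log2 fold change, with bars of 1 standard error, of the 13 genes with an unadjusted p under 0.05 for lactate removal in late embryos, for G&N-L over G&N, G&N-L + Lac-CoA over G&N (which shares the G&N libraries) and H3K18R over WT. The genes were chosen by the first comparison. Ccne1 lies at -1.24, -0.11 and -0.15, and Cks2 at -0.93, -1.40 and 0.14 in that order.

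H3K18R embryos were compared with WT embryos, and neither group shares libraries with those above. In edgeR 0 of the 49 genes passed the adjusted threshold, as against 0.00565% of the 17704 genes tested, and DESeq2 called 0 of the 49, against 0.61% of all genes. Taken without adjustment, p was under 0.05 for 4 lower genes, against 2.67% of all genes, and for 1 higher gene, against 3.77%. The lower ones were Cdk2, Cdc25c, Cdc20 and Aurka. Cdk2 had 44.5 and 32.5 CPM in H3K18R and 78.8 and 72.8 CPM in WT, with the fitted difference at -0.97 (SE 0.323, adjusted p = 0.734). Cdc25c had 66.2 and 60.7 CPM against 147 and 98.7 CPM, at -0.95 (SE 0.323, adjusted p = 0.734). For Cdc20 the levels were 110.4 and 82.8 CPM against 184 and 155 CPM, at -0.81 (SE 0.296, adjusted p = 0.743). Aurka was at 169.6 and 107 CPM against 231 and 288 CPM, at -0.90 (SE 0.336, adjusted p = 0.746). Wee2 was the gene with the higher level, at 362 and 536 CPM against 226 and 205 CPM, 1.06 on the log2 scale (SE 0.301, adjusted p = 0.734). The WT libraries of Wee2 were the lowest of the 14. The 8 egg transcripts, of which Wee2 is not one, were also higher in H3K18R, at 2634 to 4363 CPM against 2316 to 2394 CPM in WT, and so were the 2-cell transcripts, at 1755 to 1967 CPM against 1020.2 to 1480.3 CPM, while the cumulus markers overlapped. Their part in these differences was not tested.

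The B-type cyclins came first among the other paralogue sets. Ccnb1 was at 2422 and 2165 CPM in H3K18R and 2867 and 2685 CPM in WT, Ccnb2 at 57.1 and 121 against 50.2 and 78.8, and Ccnb3 at 28.1 and 13.8 against 25.2 and 6.23. Ccna2 was at 359 and 336 CPM against 369 and 419.6, and Ccna1 at 1.92 and 1.14 against 1.13 and 3.85. Ccne1 had 134 and 112 CPM against 149 and 125, an overlap, with a log2 fold change of -0.15 (SE 0.278), and Ccne2 133 and 172 against 123 and 117. Of the D-type cyclins, Ccnd1 was at 11.8 and 10.9 CPM against 4.87 and 7.62, Ccnd2 at 1.05 and 12.9 against 0 and 0.586, and Ccnd3 at 2.30 and 4.30 against 1.30 and 1.79. The adjusted p values of these 3 genes ran from 0.830 to 0.930. Cdk1 was at 859 and 558 CPM against 1035 and 805, Cks1b at 1149 and 1157 against 939 and 1047, and Cks2 at 3482 and 3318 against 3026 and 3173. Cdc25a was at 12.6 and 15.6 CPM against 11.7 and 8.94, Cdc25b at 4.70 and 9.60 against 7.26 and 6.01, and Wee1 at 21.2 and 34.5 against 19.6 and 35.8. The log2 fold changes of Cks1b and Cks2 were 0.22 (SE 0.242) and 0.14 (SE 0.236), and neither passed. Plk1 was at 30.1 and 17.9 CPM against 40.1 and 27.8, Plk2 at 1.44 and 9.25 against 1.48 and 13.7, and Plk4 at 120.1 and 225 against 110.01 and 58.7. Aurkb was at 10.3 and 13.9 CPM against 19.7 and 34.3, Aurkc at 92.1 and 58.9 against 97.8 and 149, Fzr1 at 6.28 and 6.44 against 6.91 and 4.69, and Mos at 2.68 and 1.05 against 0.348 and 2.56. The log2 fold changes were -0.90, -1.16 (SE 0.474) and -0.71 (SE 0.377) for Aurka, Aurkb and Aurkc, and none passed.

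A second list of 66 regulators around these genes (APC/C inhibitors and ubiquitin enzymes, Cdk inhibitors, Greatwall and phosphatase genes, kinetochore genes, Rb and E2F genes) was read beside them. From early to late with lactate, 4 of the 65 tested were higher and 10 lower, and without lactate 5 of 64 were higher and 10 lower, beside the background shares given above. Securin (Pttg1), the APC/C substrate that holds separase, had 11735 and 14143 CPM early and 2993 and 3322 CPM late with lactate, a log2 fold change of -2.12 (SE 0.284, adjusted p = 0.0140). Btrc, an F-box protein that marks Wee1 and the APC/C inhibitor Fbxo5 for destruction, fell from 161 and 102 CPM to 10.4 and 17.997 CPM, at -3.26 (SE 0.406, adjusted p = 0.0121), and Skp1, its partner, fell by 1.74 on the log2 scale (SE 0.249, adjusted p = 0.0157). Mad2l1bp, which removes Mad2 from its target, rose from 126 and 82.8 CPM to 546 and 789.5 CPM, at 2.62 (SE 0.312, adjusted p = 0.0110), while Mad2l1 itself fell. The Cdk inhibitor gene Cdkn1a rose by 3.73 (SE 0.566, adjusted p = 0.0181) and the phosphatase gene Ppp1cc by 2.30 (SE 0.356, adjusted p = 0.0190) on the log2 scale. Without lactate Pttg1 (-2.61, SE 0.135, adjusted p = 0.00489), Btrc (-3.23, SE 0.211, adjusted p = 0.00489) and Mastl, the Greatwall kinase (-1.56, SE 0.143, adjusted p = 0.00779), fell. There, Mad2l1bp (1.93, SE 0.181, adjusted p = 0.00779), Ppp1cc (1.93, SE 0.283, adjusted p = 0.0197) and E2f5 (0.80, SE 0.148, adjusted p = 0.0335) rose. In the 5 other comparisons and the interaction 0 regulators passed in edgeR. At an unadjusted p under 0.05, lactate removal gave 4 higher and 7 lower of 65 in late embryos (4.32% and 7.65% of all genes). In early embryos it gave 0 and 0 of 65 (1.82% and 2.70%). Lac-CoA gave 5 and 8 of 64 over G&N-L (6.92% and 6.38%) and 1 and 1 over G&N (4.41% and 4.10%). H3K18R over WT gave 9 and 4 of 64 (3.77% and 2.67%), and the interaction 5 and 2 of 65 (3.57% and 3.98%). DESeq2 called 0 to 1 higher in each of these, against 0.110% to 3.37% of all genes. It called 0 to 3 lower, against 0.0923% to 3.07%.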

How the data were processed

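RNA was measured in 14 libraries of 7 groups of 2. Per the methods, the authors used FastQC for read quality, Trim Galore for trimming, HISAT2 for alignment (mm39) and featureCounts for counting, and the deposited values are raw counts per gene. The annotation release and the strand setting are not given in the sources used here, and exons of 28 of the 49 genes overlap an antisense gene (GENCODE vM39), so reads of both cannot be told apart there. A group has 2 libraries in the counts and 3 replicates in the supplementary methods. Nothing says that replicates came from separate litters, so p-values measure the spread between these samples.

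Counts were analysed in R 4.3.3. The 4 libraries of a comparison entered a fit of their own in edgeR 4.0.16 (filterByExpr, TMM, two-sided quasi-likelihood test), adjusted by Benjamini-Hochberg over all genes tested, called at an adjusted p under 0.05. DESeq2 1.42.0, another scaling, filters, a replicate block and each library left out were alternatives. An exact permutation test of 2 against 2 cannot go below 0.333. The script was tested on simulated data. CPM per kb uses the length of the canonical transcript. Fitted log2 fold changes use a prior count of 0.125. Replicates differed by more than counting noise (chi-square per degree of freedom 51.9 or more). Totals of 20350427 to 61275465 counts set the depth.

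The 49 genes and the lists were chosen with earlier results of these data known. Genes with values are the paralogue sets, Mos, Cdk1, Cdc20 and Fzr1, those called with lactate (up to 3 a direction in each role group) and, elsewhere, the 5 of smallest unadjusted p a direction. Other genes are named by role group. Regulators named are the 3 of smallest p a direction.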

Additional observations from a re-analysis of the deposited data

How the results depend on the processing

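Of the genes that passed in edgeR, 0 of 7 with and 0 of 13 without lactate changed direction under the alternatives run. Of all genes tested, direction changed under at least 1 alternative for 13 of 49 with and 14 of 48 without lactate, for 18 of 49 under lactate removal in late embryos (Ccnb1 and Ccnb2 among them) and 28 of 47 in early ones (Ccne1 and Cks2 among them), for 15 and 29 of 49 with Lac-CoA over G&N-L and over G&N, for 20 of 49 in H3K18R over WT and for 28 of 49 in the interaction. Medians over the 49 genes changed sign too. In late against early embryos with lactate, the 4 higher and 3 lower genes became 8 and 9 with DESeq2, 7 and 10 without a filter (9.86% and 7.39% of all genes), 8 and 7 with at least 10 counts in every library (14.2% and 11.6%), and 7 and 8 with all 14 libraries in 1 fit (9.76% and 3.85%). Leaving out 1 library gave 0 to 7 higher and 0 to 4 lower genes (0.909% to 8.03% and 0.0713% to 3.30% of all genes) and a median from -0.54 to -0.058, and library totals a median of 0.29. Without lactate, the 3 higher genes became 10 with DESeq2, 7 with library totals, 6 without a filter (5.59% of all genes), 7 with at least 10 counts in every library (11.5%) and 5 with all 14 libraries (7.31%). The 10 lower ones became 15 with DESeq2, 5 with library totals, 13 without a filter (4.92%), 13 with at least 10 counts in every library (11.9%), 7 with all 14 libraries (2.92%), and 3 to 6 with 1 library left out (1.04% to 2.23%), with a median from -0.26 to 0.0669, and library totals gave a median of 0.25. For lactate removal in late embryos, 0 lower genes became 4 with DESeq2 and 2 without a filter (Ccne1, Cdc25c, against 0.871% of all genes), and the median ran from -0.45 to -0.0038 with 1 library left out. For Lac-CoA over G&N-L, DESeq2 gave 2 higher and 2 lower, and the median ran from -0.13 to 0.32. For Lac-CoA over G&N, 1 lower gene, Cks2, was called by DESeq2 and with at least 10 counts in every library (0.0427% of all genes), and the median ran from -0.31 to 0.14. For H3K18R over WT the median ran from -0.18 to -0.0284. The cause of these moves was not tested.

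Replicates with the same number were not treated as pairs. Deviations of same-numbered libraries correlated at -0.0439 to 0.0356 over 21 pairs of groups, which does not settle whether they were collected together. With the replicate block, lower genes without lactate were 5 in place of 10, and Cdc25c was called there (log2 fold change 3.84, adjusted p = 0.0368). With lactate the block gave 4 higher and 4 lower. Scaling by transcript length moved shares: in late G&N, Ccne1 took 68.9% and 58.7% of its set per kb and 46.9% and 36.2% of CPM, and Aurka 34.3% and 37.7% per kb and 52.6% and 56.1% of CPM.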
